A study of Mus musculus with 17 samples.

Results

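iXEN cells grown in ESC medium were compared with mouse embryonic fibroblasts (MEF) in 7 of the 17 mRNA libraries of the study. The 7 were chosen by their source labels, and all come from cells of the CD-1 strain. The 4 iXEN libraries, numbered 1, 2, 6 and 9 in their titles, come from induced extraembryonic endoderm stem cells kept for 10 passages in ESC medium and for 5 more in the same medium. The 3 MEF libraries, numbered 1 to 3, are the untreated control and had 3 passages in their own medium. The effects of cell type, culture medium and passage number cannot be told apart, since all of them differ between the groups. The labels name no transgene and do not say whether each iXEN number is 1 clone or whether libraries came from separate derivations, so the p-values measure the spread between these libraries. Lines of this kind are known to arise in fibroblast cultures given the reprogramming factors Oct4, Sox2, Klf4 and c-Myc. The 3 libraries of XEN cells, the established stem cell line of the same lineage, in ESC medium are used below as a reference.

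The extraembryonic endoderm lines the yolk sac. Its parietal part deposits Reichert's membrane, a thick basement membrane of laminin, type IV collagen, nidogen and SPARC, and its visceral part takes up, digests and exports nutrients for the embryo. Fibroblasts secrete the other kind of matrix, the interstitial network of fibrillar collagens, fibronectin, fibrillin and small proteoglycans, and live among mesenchymal growth signals.

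Gene counts came to 21752277 to 42949297 per iXEN library and 25871507 to 33893638 per MEF library. Levels are given as CPM, gene counts scaled by library total and TMM factor, and changes on the log2 scale, as fold changes of iXEN over MEF from edgeR's quasi-likelihood test. Rose and fell are used for genes with a Benjamini-Hochberg adjusted p under 0.05, the adjustment being over all 14352 genes tested. By this rule 46.7% of genes changed, 20.8% rising (2985) and 25.9% falling (3719), and the median log2 fold change of all genes was 0.03. The falls were the larger changes, with 1996 genes down and 729 up by more than 8-fold, and 417 down and 112 up by more than 256-fold. The count of rises was 1898 without MEF 1 and 1975 without MEF 3. For 54.6% of genes the 4 iXEN values and the 3 MEF values did not overlap, with iXEN above in 23.3% and below in 31.3%. In bulk RNA, fewer cells of a type and less RNA per cell cannot be told apart.

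iXEN 6 stood apart from the other iXEN libraries. Its log2 CPM correlated with theirs at 0.958 to 0.967, against 0.977 to 0.982 among the others. For 50.7% of 9743 genes it was the library farthest from the mean log2 level of the other iXEN libraries. Reads without a feature made up 5.27% of its file against 9.37% to 11% in the other iXEN files. Values without it are given for the named genes and described lists whose calls it changed or whose size it moved by more than 1.5 times.

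The labels were checked against marker genes. Of 8 markers of extraembryonic endoderm, 7 rose, and their summed level was 20497 to 32028 CPM in iXEN cells and 781 to 985 CPM in MEF. Pdgfra, a growth factor receptor, was the marker without a call (0.36). All 8 fibroblast markers fell, from 24360.1 to 34151 CPM in sum to 14.6 to 21.5 CPM. Pluripotent cell markers summed to 3.55 to 27.0 CPM in iXEN cells and 2.83 to 4.95 CPM in MEF, Zfp42 gave most of the sum in iXEN cells, and Fgf4 was at 0 in all 7 libraries. Macrophage markers summed to 32.8 to 103 CPM in MEF and 6.83 to 29.2 CPM in iXEN cells, where Ptprc, C1qa and Emr1 were at 0. Of 7 macrophage markers tested 6 fell, and the remaining tested marker had no call. Neural markers summed to 9.41 to 49.5 CPM in iXEN cells and 77.4 to 107 CPM in MEF, with 1 up and 1 down of 3 tested. No muscle or trophoblast marker was called. Of 7 endothelial markers, Cdh5, Tek and Esam rose, while Cldn5 was at 0 throughout and Pecam1 and Emcn stayed under 1 CPM in iXEN cells. Of 7 red cell markers the embryonic globin Hba-x rose, and the other 6 stayed under 1 CPM in iXEN cells, Hba-a1, Hbb-b1 and Hbb-bh1 at 0.

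Matrix RNA changed from the interstitial to the basement membrane kind. Genes of the basement membrane list took up 13.2% ± 1.86 of gene counts in iXEN cells (SD, n = 4) and 1.35% ± 0.0648 in MEF (SD, n = 3). Genes of the interstitial matrix list took up 0.0881% ± 0.0192 and 8.90% ± 1.12. By library the basement membrane share was 11.7%, 13.2%, 12.1% and 15.8% in iXEN 1, 2, 6 and 9 and 1.36%, 1.28% and 1.41% in MEF 1 to 3, and the groups did not overlap in either share. With the 10 most abundant genes of each library left out, the basement membrane share was 0.669% in iXEN cells and 1.07% in MEF, so the rise rested on a few genes. Of the 32 tested basement membrane genes 13 rose and 11 fell (median log2 fold change 0.25), whereas 40 of 41 interstitial genes fell and 0 rose (median -9.46). Loxl2, a collagen cross-linking enzyme that also acts on type IV collagen, was the interstitial gene without a call (-0.98, adjusted p = 0.179), and without iXEN 1 it was at -1.49 (0.0462).

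**Figure D1:**
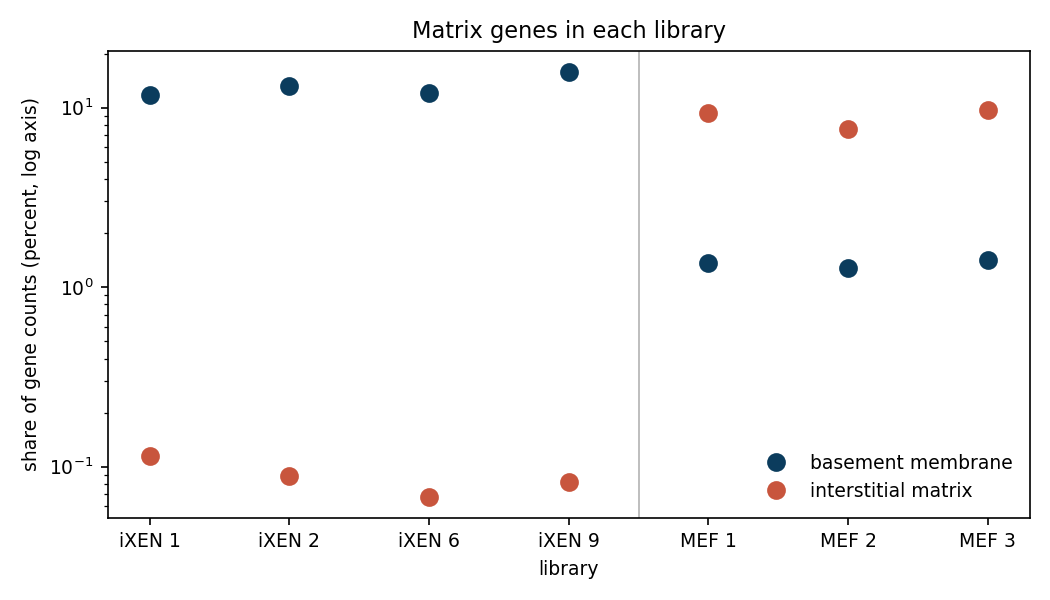
Share of all gene counts taken by the basement membrane list and by the interstitial matrix list in each of the 4 iXEN and 3 MEF libraries (log axis, percent). The mean shares were 13.2% and 0.0881% in iXEN cells, and 1.35% and 8.90% in MEF, so the order of the lists is inverted between the groups.

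The laminin trimer of Reichert's membrane is built of the chains alpha 1, beta 1 and gamma 1. Lama1, the alpha 1 chain, was at 28361, 26153, 16889 and 27926 CPM in iXEN 1, 2, 6 and 9 and at 35.3, 41.7 and 32.0 CPM in MEF 1 to 3. Every iXEN value was far above every MEF value, and the log2 fold change was 9.45 (SE 0.42, edgeR adjusted p = 1.31e-06). Lamb1, the beta 1 chain, was at 16654, 17786, 14195 and 17419.5 CPM against 558, 534 and 516 CPM (4.98, SE 0.27). Lamc1, the gamma 1 chain, was at 22549, 20909, 11907 and 20582 CPM against 515, 504 and 531 CPM (5.23, SE 0.35). Per length, on the TPM scale that divides counts by exon length, the chains were near parity in iXEN cells. Their levels were 7516 TPM for Lama1, 8069 TPM for Lamb1 and 7201 TPM for Lamc1. In MEF the levels were 10.3, 249.9 and 185 TPM, so Lama1 was scarce beside its partners. The ratio of Lama1 to Lamb1 in TPM was 1.04, 0.902, 0.730 and 0.983 in iXEN 1, 2, 6 and 9 and 0.0388, 0.0479 and 0.0380 in the MEF libraries, while the ratio of Lamc1 to Lamb1 was 0.872 ± 0.165 in iXEN cells (SD, n = 4) and 0.740 ± 0.0429 in MEF (SD, n = 3).

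Chains of other laminins moved in both directions. Lama2 and Lama4, the alpha chains of muscle and of vessel or mesenchymal basement membranes, fell by 9.42 (SE 0.39) and 5.70 (SE 0.92) on the log2 scale, and iXEN 1 kept 21.6 CPM of Lama4 against 1.14 to 4.58 CPM in the other iXEN libraries. Lamb2 lay at 290 ± 65.2 CPM in iXEN cells against 370.1 ± 46.2 CPM in MEF, without a call. Lama5, an alpha chain of many epithelia, rose by 1.82 (SE 0.42).

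Type IV collagen, which forms the network of basement membranes, is mostly a trimer of the products of Col4a1 and Col4a2, head-to-head neighbours that share a promoter. Col4a1 was at 2219.8, 11622, 32057 and 24749.7 CPM in iXEN 1, 2, 6 and 9 and at 1057, 1260.2 and 779.6 CPM in MEF. Col4a2 was at 1483, 9130, 21376 and 17277 CPM against 894, 985 and 666 CPM. iXEN 1 was the lowest for both, close above MEF, and iXEN 6, the lowest for the laminin chains, was the highest. The log2 fold changes were 4.13 (SE 0.85, adjusted p = 0.00443) for Col4a1 and 3.90 (SE 0.83, adjusted p = 0.00513) for Col4a2. The ratio of Col4a2 to Col4a1 in TPM varied less than the genes themselves, at 0.685, 0.806, 0.684 and 0.716 in iXEN 1, 2, 6 and 9 and 0.802 to 0.877 in MEF. Col4a5 and Col4a6, the chains of another network, fell by 8.08 and 8.21.

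Nid1, nidogen 1, links the laminin and collagen networks. It was at 10728, 10344 and 10882 CPM in iXEN 1, 2 and 9, but at 1024 CPM in iXEN 6, which lay inside the MEF range of 980 to 1126 CPM. The call held with that library in the fit (2.98, SE 0.72, adjusted p = 0.0097). Nid2 was also lowest in iXEN 6, at 495 CPM against 1696 to 2696 CPM in the others and 204 to 365 CPM in MEF (2.63, SE 0.54). Sparc, a collagen-binding chaperone of basement membranes, was at 23527, 31039, 21138 and 34198 CPM against 5436, 5107 and 6181 CPM (2.33, SE 0.29). At 28840.4 TPM it was above the laminin, type IV collagen and nidogen chains per length in iXEN cells. Hspg2, the proteoglycan perlecan, had no call, at 1338 ± 583 CPM in iXEN cells against 1710.2 ± 102 CPM in MEF. Agrn, agrin, had none either (-0.43, adjusted p = 0.535). The other rises included Ntn4, a laminin-binding netrin (4.59, SE 0.46), and Smoc1, a calcium-binding matrix protein (3.20, SE 0.40).

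**Figure D2:**
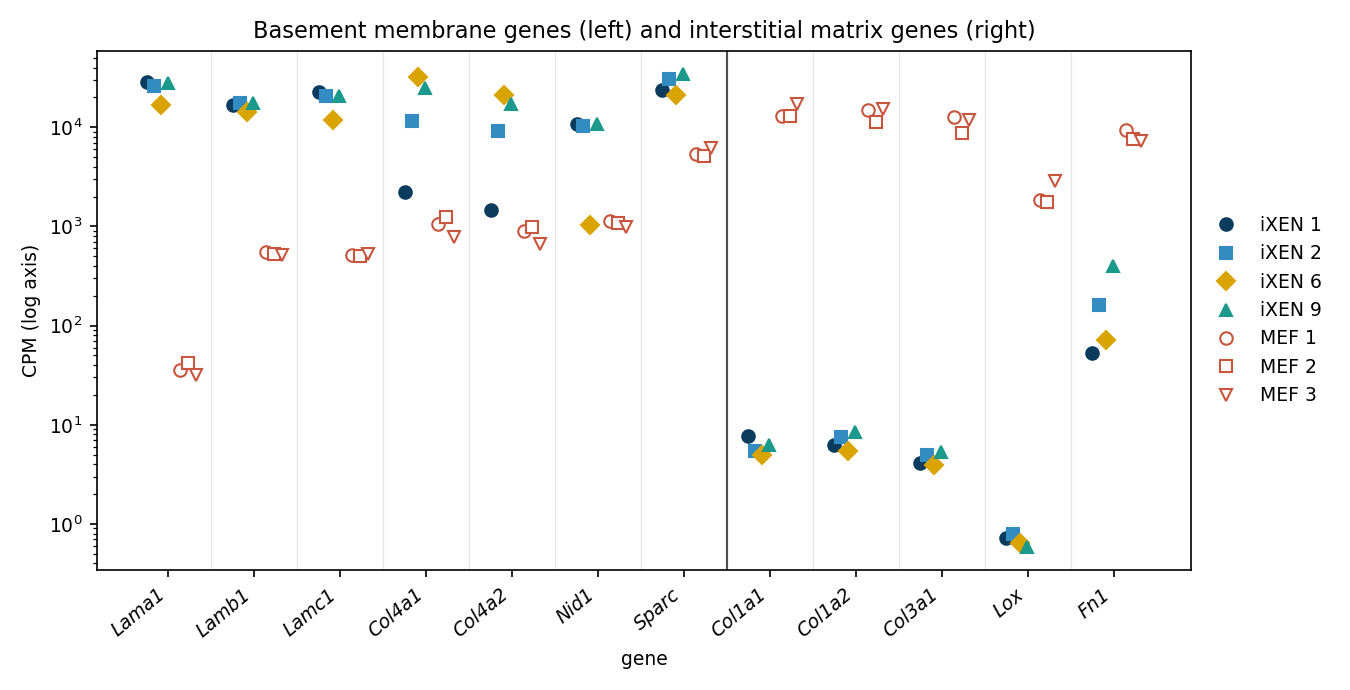
CPM of 7 basement membrane genes and 5 interstitial matrix genes in each iXEN and MEF library (log axis, 1 point per library). Basement membrane genes lie higher in iXEN cells except Nid1 in iXEN 6, at 1024 CPM, and the interstitial genes lie higher in every MEF library.

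The interstitial side went down together. Col1a1, a chain of the main fibrillar collagen, was at 7.77, 5.44, 4.94 and 6.30 CPM in iXEN 1, 2, 6 and 9 and at 12934, 12929.7 and 17288 CPM in MEF (-11.17, SE 0.36, adjusted p = 5.2e-07), without overlap. Col3a1 fell by 11.21 and Col1a2 by 10.93 on the log2 scale. Lox, which cross-links collagen fibres, fell by 11.58 (SE 0.34). Tnc, the adhesion-modulating glycoprotein tenascin C, fell from 1229.8 ± 375 to 0.558 ± 0.0921 CPM. Fn1, fibronectin, kept more than these, at 52.6, 160.4, 71.1 and 401 CPM against 9408, 7676 and 7311 CPM (-5.55, SE 0.72). Vcan, the proteoglycan versican, was at 219 CPM in iXEN 1 and 3.04 to 14.9 CPM in the other iXEN libraries. Its log2 fold change was -4.30 (adjusted p = 0.0291) and -7.13 without iXEN 1 (0.000218), and without any 1 MEF library, iXEN 2 or iXEN 9 it was not called (0.0560 to 0.0665). Of 43 collagen genes of all types 35 fell and 4 rose (median -7.45, or -7.34 with genes at 0 in a group set to the bound that 3 counts allow).

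Enzymes that fold and modify collagen in the secretory pathway did not follow the fibrillar collagens. Of 31 tested genes 18 rose and 1 fell (median 0.77), and 11 rose without MEF 1, while 2 fell without iXEN 6 or iXEN 9. Their share of gene counts was 2.91% ± 0.695 in iXEN cells and 1.41% ± 0.107 in MEF. Plod2, a lysyl hydroxylase, was at 2543, 2227, 1258 and 1712 CPM against 156, 158 and 134 CPM (3.73, SE 0.31, adjusted p = 3.2e-05). The prolyl hydroxylase subunits P4ha2 and P4ha1 rose by 2.93 (SE 0.26) and 2.10 (SE 0.22), and Leprel1, a prolyl 3-hydroxylase that acts on type IV collagen, by 3.44 (SE 0.24). Its relative Leprel2 fell from 123 ± 19.7 to 3.22 ± 1.79 CPM. Serpinh1, the collagen chaperone HSP47, rose by 1.28 (adjusted p = 0.012, and 0.0641 without MEF 1). Of the transcription factors that answer stress in the secretory pathway, Xbp1 rose (1.18, SE 0.25) and Creb3l1 had no call (0.15, adjusted p = 0.841).

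Receptors for the matrix were mostly lower. Of 30 tested integrins and matrix receptors 3 rose and 19 fell (median -2.56). The laminin-binding alpha chains divided. Itga6 was at 395, 480, 114 and 302 CPM against 26.1, 26.6 and 25.7 CPM (3.66, SE 0.47), and Itga3 was at 148 ± 54.3 against 22.5 ± 5.16 CPM (2.75, SE 0.33). Itga7, another laminin-binding chain, fell from 22.9 ± 2.86 to 3.37 ± 3.48 CPM (-2.72, SE 0.70). Itga11, a receptor of fibrillar collagen, was at -8.02 (SE 0.41) and the collagen-binding kinase Ddr2 at -8.99 (SE 0.33). Dag1, dystroglycan, a laminin receptor, fell by 1.20 (SE 0.20). Itga5, part of the fibronectin receptor, had no call (0.12, adjusted p = 0.87), with 533 CPM in iXEN 6 and 112 to 195 CPM in the others.

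Matrix-degrading enzymes were mostly lower, with 22 of 31 genes down and 5 up (median -5.56). Mmp2, a gelatinase, fell from 589 ± 165 to 1.32 ± 0.532 CPM, and Plat, the tissue plasminogen activator, rose from 138 ± 21.4 to 466 ± 214 CPM (1.79, SE 0.39). The matrix metalloprotease genes Mmp3 and Mmp13 are textbook targets of the transcription factor AP-1, and the 100 bases before their RefSeq starts (build GRCm38.p6) are shown because each holds the AP-1 motif TGACTCA, in capitals on either strand. The stretches are chr9:7445722-7445821 and chr9:7272414-7272513, both on the plus strand.
Mmp3: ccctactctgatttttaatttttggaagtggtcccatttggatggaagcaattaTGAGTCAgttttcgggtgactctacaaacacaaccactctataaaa
Mmp13: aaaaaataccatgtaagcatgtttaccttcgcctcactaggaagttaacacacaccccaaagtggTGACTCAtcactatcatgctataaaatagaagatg
Counting the base before the start as -1, the matches lie at -46 to -40 and at -35 to -29. Mmp3 was at 0, 0.0465, 0 and 0.0980 CPM in iXEN 1, 2, 6 and 9 and at 19.7, 15.9 and 11.5 CPM in MEF (-8.42, SE 0.68), and Mmp13 was at 0.0547 ± 0.0646 against 10.5 ± 3.40 CPM. Within 250 bases before the start, TGACTCA was found in 3.17% of the 10683 promoters of tested genes, in 5.17% of those of genes down more than 8-fold and in 5.31% of those of genes up more than 8-fold. These are matches of letters, and binding was not measured.

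Endoderm transcription factors rose. Of 18 tested, 14 rose and 2 fell (median 6.42). Sall4, a zinc finger factor of early lineages, was at 169, 167, 199 and 171 CPM in iXEN cells and at 0.348, 0.339 and 0.206 CPM in MEF (9.25, SE 0.29, adjusted p = 4.92e-07). It was nearly level across the 4 iXEN libraries. Foxa3, a forkhead factor, was at 1.39 CPM in iXEN 1 and 8.65 to 12.1 CPM in the others, and with 3 counts in MEF its ratio was 244 (95% counting interval 83.3 to 1186). Cebpa, an adipocyte and liver factor, fell by 5.56 (SE 0.69).

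Hnf4a, a nuclear receptor of visceral endoderm, is known to be bound by GATA factors. It was at 17.7, 41.3, 27.4 and 29.1 CPM in iXEN cells and at 0, 0.0753 and 0 CPM in MEF, where it had 2 counts, and the ratio was 1335 (95% counting interval 369 to 11027). The 100 bases before its RefSeq start (chr2:163506757-163506856, plus strand) are shown for the GATA motif AGATAA, in capitals at -52 to -47 on either strand.
Hnf4a: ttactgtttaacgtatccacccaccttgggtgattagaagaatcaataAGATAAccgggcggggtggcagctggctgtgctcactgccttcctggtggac
AGATAA on either strand was found within 250 bases of the start in 11.8% of the 508 promoters of genes up more than 8-fold, in 5.83% of the 1373 of genes down more than 8-fold and in 5.81% of all those tested. Other motifs differed too. TATAAA was found in 11%, 10.5% and 6.61% of these sets, and the GC box GGGCGG in 42.3%, 49.9% and 58.5%. The part of base composition in these shares was not tested.

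Mesenchymal transcription factors fell, 34 of 41, with 4 up (median -4.40), and 1 was up without MEF 1 or MEF 2 and 2 without MEF 3 or iXEN 2. Prrx1, a homeobox factor of limb and face mesenchyme, was at 0.840, 0.441, 0.138 and 0.392 CPM against 701, 602 and 784 CPM (-10.54, SE 0.51). The repressors of epithelial genes did not move alike. Snai2 fell by 7.05 (SE 0.36) and Zeb2 by 3.73 (SE 0.64), while Zeb1 fell only from 126 ± 24.1 to 45.6 ± 20.5 CPM (-1.43, SE 0.33). Of 10 epithelial regulators 8 rose and 2 fell (median 4.08). Esrp2, a splicing factor of epithelia, was at 19.5, 23, 20.7 and 30.4 CPM against 1.08, 1.58 and 0.736 CPM (4.40, SE 0.36). Ovol2, a repressor of Zeb genes, was at 0 in MEF and at least 97.4-fold higher, and Elf3, an epithelial ETS factor, had 2 counts in MEF and a ratio of 994 (275 to 8209).

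Genes of tight junctions and of the apical surface mostly rose. Of 19 tight junction and polarity genes 13 rose and 3 fell (median 1.83), and of 18 genes of the apical surface 12 rose and 1 fell (median 3.59), or 2 without iXEN 6. Ocln, the tight junction protein occludin, was at 15.4, 28.7, 21.0 and 20.2 CPM against 0.116, 0.188 and 0.0884 CPM (7.36, SE 0.43). Podxl, a sialomucin of apical membranes, was at 829.8, 879.7, 894 and 792 CPM against 4.84, 6.10 and 3.09 CPM (7.54, SE 0.33), with little spread among the iXEN libraries. Cldn6, an embryonic claudin, was uneven, with 107 CPM in iXEN 6 and 4.87 CPM in iXEN 9, while Cldn1 had 3 counts over the iXEN libraries and a ratio of 335 (114 to 1629.7) in favour of MEF.

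Adherens junction and desmosome genes divided, with 7 of 22 up (31.8%) and 8 down (36.4%). Over all genes tested 20.8% rose and 25.9% fell, so a split of this kind is common. Among the cadherins, levels per length show which was the main one. In iXEN cells Cdh5, VE-cadherin, was at 171 TPM and Cdh1, E-cadherin, at 7.15 TPM. In MEF Cdh11, a mesenchymal cadherin, was at 497 TPM, Cdh3 at 76.0 TPM, Cdh2 at 68.5 TPM and Cdh5 at 1.91 TPM. Cdh5 was at 251, 362, 205 and 143 CPM in iXEN 1, 2, 6 and 9 and at 3.99, 1.81 and 2.50 CPM in MEF (6.48, SE 0.47). The desmosome gene Dsp rose by 6.46 (SE 0.37). Vim, the intermediate filament of mesenchyme, was at 184, 382, 361 and 289 CPM against 3363, 5259 and 5377 CPM (-3.91, SE 0.33), and the simple-epithelial keratin Krt8 was at 678, 586, 1143 and 386 CPM against 3.45, 6.51 and 3.12 CPM (7.37, SE 0.57). Reads of keratin genes can be shared with processed pseudogenes. Of 48 protocadherins 37 fell and 1 rose (median -2.76), the clustered ones share sequence, and the rise was not called without any 1 MEF library, iXEN 1 or iXEN 2.

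Of 27 contractile and actin-stress genes 16 fell and 2 rose (median -1.68). Acta2, smooth muscle actin, was at 221 CPM in iXEN 1 and at 5.34, 36.9 and 4.64 CPM in iXEN 2, 6 and 9, against 2724, 5219 and 2239 CPM (-5.61, SE 1.37, adjusted p = 0.0101). Tagln had the same order, with 75.9 CPM in iXEN 1. The matricellular gene Ctgf, which fibroblasts under tension are known to express, went the other way and rose from 152 ± 28.4 to 1125 ± 406 CPM (2.92, SE 0.32). Thbs1, thrombospondin 1, also matricellular but of another family, fell from 5172 ± 837 to 63.2 ± 26.5 CPM.

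Endocytic receptors and adaptors were level as a list. Of 23 tested 5 rose and 7 fell (median 0.00), shares near those of all genes, and 8 rose without iXEN 6. Cubn, cubilin, a receptor for vitamin-binding and iron-binding proteins, was at 534, 232, 9.27 and 677 CPM in iXEN 1, 2, 6 and 9 and at 3.64, 3.69 and 4.01 CPM in MEF (6.61, SE 1.30, adjusted p = 0.00344). Its partner Lrp2, megalin, was at 174, 52.6, 143 and 51.0 CPM against 5.19, 5.38 and 2.47 CPM (4.64, SE 0.61). The iXEN library lowest in Cubn was thus not low in Lrp2. Per length, Lrp2 was at 18.1 TPM and its relative Lrp1 at 7.28 TPM in iXEN cells, against 0.711 and 311 TPM in MEF. Lrpap1, the chaperone of these receptors, rose from 112 ± 11.7 to 1477 ± 356 CPM (3.76, SE 0.28).

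Of 32 lysosome genes 19 rose and 5 fell (median 1.0), and the list took 2.05% ± 0.387 of gene counts against 0.860% ± 0.115. Ctsl, the protease cathepsin L, was at 6996, 8429, 2744 and 9032 CPM against 642, 578 and 724 CPM (3.42, SE 0.44), which gave 3202 TPM in iXEN cells. Ctsh was at 615 ± 119 against 11.8 ± 1.72 CPM (5.74, SE 0.27) and Lgmn, legumain, rose by 2.47 (SE 0.21). Tfeb, a regulator of lysosome genes, rose by 2.28 (SE 0.43). Ctsk and Ctss, cathepsins of bone-resorbing and antigen-presenting cells, fell. Ctsk was at 0.316 ± 0.0254 against 37.9 ± 8.34 CPM (-6.86, SE 0.29), and Ctss had 3 counts in iXEN cells against 11.4 ± 4.32 CPM in MEF, where macrophage markers were also higher. The part of macrophages in that difference was not tested.

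Lipid carriers moved in part. Of 20 apolipoprotein and lipid transport genes 10 rose and 5 fell (median 1.36), with 3 falls without MEF 2. Fabp3, a fatty acid-binding protein, was at 1650.2, 717, 1642 and 684 CPM against 8.98, 8.17 and 12.3 CPM (6.94, SE 0.53), or 4027 TPM. Mttp, which loads lipid on apolipoprotein B, was at 142, 164, 24.2 and 219.9 CPM against 10.0, 9.14 and 8.19 CPM (3.94, SE 0.67), whereas Apob itself reached only 3.90 ± 2.13 CPM. Apoe fell by 2.60 (SE 0.54). Secreted serum proteins were uneven between iXEN libraries, as Ttr, the thyroxine carrier, showed at 21.7, 153, 26.1 and 122 CPM, and Alb had no call (2.94, adjusted p = 0.121) with 24.4 CPM in iXEN 2 and 1.43 to 2.55 CPM in the others. Of 19 iron and heme genes 1 rose and 7 fell (median -0.04), 4 rose without iXEN 6 and 2 without iXEN 9, and Steap3, a ferrireductase of endosomes, fell from 124 ± 29.8 to 0.100 ± 0.0772 CPM.

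Retinoid genes changed in both directions. Of 17 tested, 5 rose (29.4%) and 8 fell (47.1%), with a median of -0.73, and 3 rose without MEF 1 or MEF 2. Over all genes tested 20.8% rose and 25.9% fell, so the falls stood out more than the rises. Stra6, the retinol receptor, was at 383, 360.2, 222 and 120.2 CPM against 0.581, 0.602 and 0.442 CPM (9.0, SE 0.57). Aldh1a2, which makes retinoic acid, fell by 7.59 (SE 0.79), and Crabp1, which binds it, fell from a mean of 208 to a mean of 0.213 CPM. Cyp26a1, which degrades retinoic acid and is known to be induced by it, was at 34.9, 2.09, 355 and 17.6 CPM against 0, 0.113 and 0.0589 CPM (10.74, SE 2.33, adjusted p = 0.00563), while Cyp26b1 fell by 4.41 (SE 0.66). The 100 bases before the Cyp26a1 start (chr19:37697708-37697807, plus strand) hold the direct repeat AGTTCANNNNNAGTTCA, a known retinoic acid response element, on the opposite strand at -32 to -16, in capitals.
Cyp26a1: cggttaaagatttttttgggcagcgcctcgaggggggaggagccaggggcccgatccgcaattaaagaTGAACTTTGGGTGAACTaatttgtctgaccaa
The same letters were found in 6 of the 27025 promoters of the RefSeq table, and Cyp26a1 was the only tested gene among them.

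Genes of growth factor signalling changed among ligands and receptors. Of 44 tested ligands of receptor tyrosine kinases 25 fell and 6 rose (median -2.06), and of 41 receptors 20 fell and 9 rose (median -1.16). Among all genes tested 20.8% rose and 25.9% fell. The share of receptors that rose was thus near that of genes at large, and the falls stood out more than the rises. The ligand list took 1.03% ± 0.118 of gene counts in MEF and 0.0607% ± 0.00508 in iXEN cells, and Igf2 made up most of the first. Among the ligands, Hgf, which acts on the receptor Met, had 1 count in iXEN cells against 16.5 ± 0.682 CPM in MEF, a ratio of 1969 (353 to 77827), and Met fell too (-6.05, SE 0.87). Gas6, the ligand of the TAM receptors, was at 1.51, 0.697, 2.03 and 1.08 CPM against 418, 349.8 and 461 CPM (-8.25, SE 0.41). The 3 TAM receptors did not move together. Axl fell from 513 ± 132 to 3.35 ± 1.62 CPM (-7.21, SE 0.46), Tyro3 rose from 22.2 ± 1.77 to 488 ± 140.2 CPM (4.49, SE 0.29), and Mertk rose from 13.2 ± 3.57 to 66.3 ± 18.8 CPM (2.35, SE 0.30). Per length, Axl led in MEF, at 324 TPM, and Tyro3 in iXEN cells, at 289 TPM.

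The FGF receptors showed a similar exchange. Fgfr1 was at 1.30, 0.372, 0.922 and 1.37 CPM in iXEN cells and 286, 242 and 316 CPM in MEF (-8.13, SE 0.46), and Fgfr2 fell by 3.96 (SE 0.47). Fgfr3 was at 92.8, 124, 93.0 and 254 CPM against 4.49, 4.74 and 9.34 CPM (4.53, SE 0.51), and Fgfr4 was at 25.3 ± 2.99 against 0.451 ± 0.111 CPM (5.84, SE 0.31). In TPM, Fgfr1 was at 147 and Fgfr3 at 3.85 in MEF, and at 0.548 and 91.8 in iXEN cells. Fgf3, a ligand known from parietal endoderm, had 1 count in MEF and 8.52 ± 6.30 CPM in iXEN cells, a ratio of 632 (113 to 24989). Fgf7, a mesenchymal ligand, fell from 60.6 ± 15.2 to 0.431 ± 0.0227 CPM. Of 23 genes of ERK feedback and immediate response 12 fell and 2 rose (median -2.01), and the inhibitors of the pathway themselves divided, with Spry1 down (-7.44, SE 0.34) and Spry4 up (1.62, SE 0.29).

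Kit, the stem cell factor receptor, was the largest rise among the receptor kinases. It was at 383, 777, 589.7 and 621 CPM against 1.39, 1.35 and 1.80 CPM (8.63, SE 0.37, adjusted p = 1.25e-06). Its ligand gene Kitl had 31.5 ± 19.6 CPM in iXEN cells, with 5.72 CPM in iXEN 6, and 106 ± 7.95 CPM in MEF. Kitl fell by 1.71 (adjusted p = 0.0363), a call lost without any 1 MEF library (0.0768 to 0.0942) and without iXEN 2 (0.0760) or iXEN 9 (0.0697). Pdgfra lay at 261 TPM in iXEN cells and 197 TPM in MEF, while Pdgfrb fell by 6.63 (SE 1.03). Among cytokine receptors Lifr was at 732, 426, 413 and 571 CPM against 76.3, 58.4 and 67.8 CPM (3.02, SE 0.28), its co-receptor Il6st fell by 3.27 (SE 0.28), and the ligand gene Lif rose from 5.76 ± 1.04 to 49.2 ± 19.8 CPM (3.13, SE 0.37). Per length, Lifr went from 17.8 to 149 TPM and Il6st from 297 to 32.0 TPM, which inverts their order. The contents of the ESC medium, which is usually made with LIF, are not given in the labels.

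**Figure D3:**
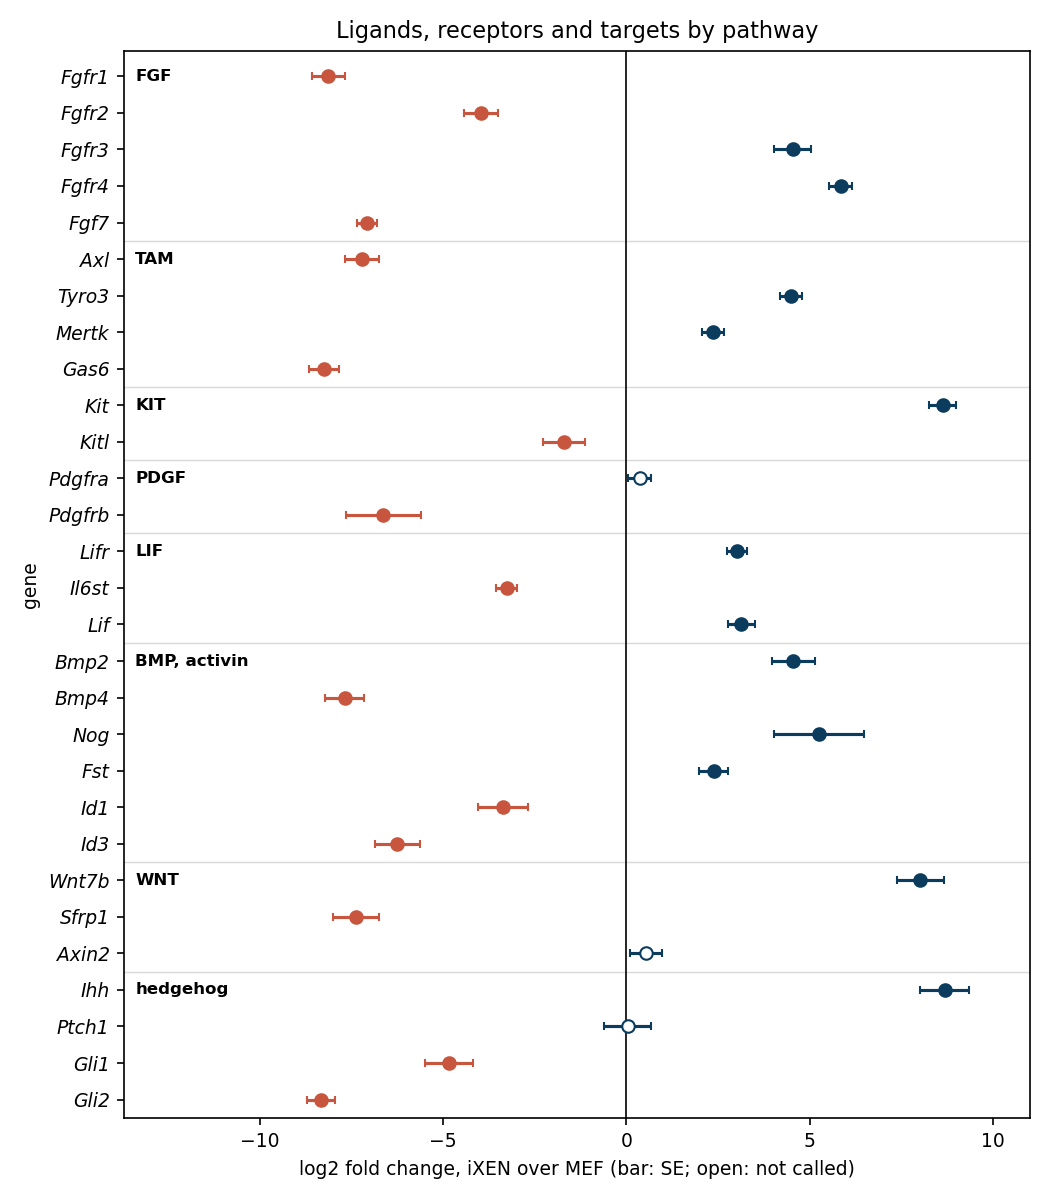
log2 fold change of iXEN over MEF with its SE for the receptors and ligands described, grouped by pathway (filled points passed the test). Receptors of a family lie on both sides of 0, as Fgfr1 at -8.13 and Fgfr3 at 4.53, or Axl at -7.21 and Tyro3 at 4.49. In the list of receptor tyrosine kinases as a whole, the share that rose was near that of all genes tested.

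In the TGF-beta and BMP list 21 of 44 genes fell and 6 rose (median -1.35). The BMP ligands differed, with Bmp4 down from 42.4 ± 7.99 to 0.211 ± 0.170 CPM (-7.69, SE 0.52) and Bmp2 up, at 35.3, 45.2, 55.9 and 38.7 CPM against 1.24, 0.715 and 3.71 CPM (4.55, SE 0.58). The known targets of BMP signalling did not move alike. Id3 fell from 225 ± 69.3 to 2.87 ± 2.11 CPM (-6.25, SE 0.61) and Id1 by 3.37 (SE 0.69), while Id2 had no call (-0.54, adjusted p = 0.0925), except without iXEN 2 (-0.71, 0.0320), and Bambi had none (1.37, adjusted p = 0.0760), except without iXEN 1 (1.68, 0.00860). Fst, the activin inhibitor follistatin, rose by 2.38 (SE 0.39). Nog, the BMP inhibitor noggin, was at 208 CPM in iXEN 6 and 14.9 to 17.7 CPM in the other iXEN libraries, against 1.24 to 2.24 CPM in MEF (5.26, adjusted p = 0.00804, and 3.26 without iXEN 6, 7.84e-05).

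Of 45 WNT pathway genes 25 fell and 7 rose (median -1.88). Rspo2, an enhancer of WNT signalling, had 3 counts in iXEN cells against 86.8 ± 55.0 CPM in MEF, a ratio of 3672 (1256 to 17811), and the secreted inhibitor Sfrp1 fell from 749 ± 79.6 to 4.36 ± 3.06 CPM. Wnt7b, an epithelial ligand, rose from 0.129 ± 0.0229 to 33.4 ± 18.4 CPM (8.02, SE 0.63). Axin2, a common WNT target, had no call (0.53, adjusted p = 0.345). In the hedgehog list the ligand Ihh was at 28.3, 125, 83.1 and 82.2 CPM in iXEN cells and under 1 CPM in MEF (8.68, SE 0.67). Of the transcription factors of that pathway, Gli2 was at -8.33 (SE 0.38) and Gli1 at -4.84 (SE 0.66), both lower, and the receptor Ptch1, also a target, had no call (0.03, adjusted p = 0.972). Of 34 axon guidance genes 23 fell and 4 rose (median -3.47). Slit2, a repellent ligand, fell by 9.74 (SE 0.36), while Sema6d, a transmembrane semaphorin, rose from 8.85 ± 1.46 to 219 ± 71.8 CPM (4.66, SE 0.35).

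Immune genes were lower. Of 41 cytokine, chemokine and receptor genes 32 fell and 2 rose (median -4.67). The chemokine gene Cxcl5 had 2 counts in iXEN cells against 92.5 ± 32.1 CPM in MEF, a ratio of 5338 (1477 to 44085), and Cxcl12 fell from 493 ± 202 to 12.9 ± 11.3 CPM. In the list of MHC class I and antigen processing 11 of 17 genes fell and 0 rose, or 1 without iXEN 9. The immunoproteasome gene Psmb8 was at 0.168, 0.0465, 0.138 and 0.0653 CPM against 20.8, 21.3 and 22.2 CPM (-7.69, SE 0.45), and Nlrc5, an activator of MHC class I genes, fell by 7.41 (SE 0.85). The class I chain genes themselves were less clear. H2-K1, which has close paralogs, had no call (0.40, adjusted p = 0.696), with 389 CPM in iXEN 6 and 35.1 to 91.8 CPM in the others, and neither had B2m (445 ± 109.9 against 511 ± 55.3 CPM).

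Of 26 interferon response genes 16 fell and 0 rose (median -2.38). Within this list Ifit1, Ifit3, Ifit2 and Isg15, which are made in answer to interferon, had the lowest log2 fold changes. The 160 bases before the starts of Ifit1, Ifit3 and Isg15 are shown, because each holds more than 1 copy of the interferon-stimulated response element GAAANNGAAA, in capitals on either strand. The stretches are chr19:34640729-34640888 and chr19:34583369-34583528 on the plus strand and chr4:156200819-156200978 on the minus strand.
Ifit1: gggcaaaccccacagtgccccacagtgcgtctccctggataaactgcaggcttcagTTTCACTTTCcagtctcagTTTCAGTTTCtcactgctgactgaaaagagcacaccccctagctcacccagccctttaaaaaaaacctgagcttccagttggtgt
Ifit3: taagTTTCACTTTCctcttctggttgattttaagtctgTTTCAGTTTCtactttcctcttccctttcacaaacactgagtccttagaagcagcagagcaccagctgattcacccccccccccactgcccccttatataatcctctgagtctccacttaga
Isg15: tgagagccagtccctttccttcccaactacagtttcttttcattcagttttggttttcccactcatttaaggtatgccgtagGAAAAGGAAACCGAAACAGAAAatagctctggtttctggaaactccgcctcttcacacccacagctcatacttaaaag
The matches begin at -104 and -85 in Ifit1, at -156 and -122 in Ifit3, and at -78, -72 and -66, overlapping, in Isg15. Isg15 was at 0.336, 0.604, 0.830 and 0.392 CPM in iXEN cells and at 52.5, 49.7 and 51.5 CPM in MEF (-6.53, SE 0.34, adjusted p = 2.9e-06). Ifit1 was at 0.168, 0.0232, 0.184 and 0.131 CPM against 34.7, 24.1 and 37.7 CPM (-8.03, SE 0.53), and Ifit3 was at 0.0673 ± 0.0206 against 11.4 ± 6.21 CPM. Within 250 bases before the start the element was found in 7 of 22 promoters of the list (31.8%), in 2.45% of all tested genes, in 3.93% of those down more than 8-fold and in 1.18% of those up more than 8-fold. The RNA sensor Ifih1 fell by 5.54 (SE 0.72). Irf7 lay at -2.78 without a call (adjusted p = 0.0572), and at -4.91 without iXEN 6 (4.86e-05), where it was at 7.20 CPM.

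Sterol and fatty acid synthesis genes fell in 26 of 31 cases and 0 rose (median -1.57), or 1 without iXEN 6. Among those not in the sterol branch, Scd1, a fatty acid desaturase, fell by 1.43 (SE 0.35), Fads2 fell by 2.64 and Elovl6 fell by 1.90, while Fasn had no call (-0.35, adjusted p = 0.395). The regulator Srebf2 fell by 1.12, and Srebf1 had no call (0.38, adjusted p = 0.235), except without iXEN 6 (0.53, 0.0400). The glucose transporter genes were unequal. Slc2a3, the high-affinity transporter GLUT3, was at 381, 483, 534 and 327 CPM against 9.25, 8.77 and 12.1 CPM (5.46, SE 0.30), while Slc2a1, GLUT1, had no call (-0.04, adjusted p = 0.949). Hkdc1, a hexokinase relative, rose from 0.669 ± 0.128 to 696 ± 219.9 CPM (10.05, SE 0.42) and Hk2 by 2.30 (SE 0.22). In TPM, Slc2a3 was at 306 and Slc2a1 at 71.1 in iXEN cells, against 6.93 and 69.6 in MEF. Of 26 glycolysis genes 2 rose (7.69%) and 7 fell (26.9%), with a median of -0.52. Over all genes tested 20.8% rose and 25.9% fell, so the share of falls was that of genes at large. Most of the list had no call. In it 4 fell without MEF 2 or iXEN 9, while 5 rose without iXEN 1 and 1 without MEF 1 or MEF 3. Of 85 subunits of the respiratory chain 22 rose and 0 fell (median 0.44). The rises were 25.9% of the list, near the 20.8% of all genes tested, while 25.9% of all genes fell. Only 4 rose without MEF 1 and 8 without MEF 3, and 4 fell without iXEN 6.

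The lists of ribosome biogenesis, cytosolic ribosomal protein and Polycomb genes had small median changes. Of 25 ribosome biogenesis genes 12 rose and 0 fell (median 0.70), and 7 rose without MEF 1 or MEF 3. Of 81 cytosolic ribosomal protein genes, whose reads can be shared with pseudogenes, 1 rose and 2 fell (median -0.13), and 20 fell without iXEN 6 and 1 without MEF 2. The D-type cyclins were unequal. Ccnd1 was at 3.91, 1.86, 4.70 and 1.89 CPM against 141, 229 and 151 CPM (-5.79, SE 0.43), Ccnd2 fell by 2.51 (SE 0.35), and Ccnd3 had no call (0.07, adjusted p = 0.803). Per length Ccnd3 was at 169.6 TPM in iXEN cells, above Ccnd2 at 40.8 and Ccnd1 at 2.32 TPM. Cdkn1c, an imprinted inhibitor of cyclin-dependent kinases, fell from 156 ± 51.6 to 1.65 ± 2.27 CPM. Of 30 Polycomb genes 12 rose and 2 fell (median 0.30), and 4 fell without iXEN 6. Cbx7, a reader of the Polycomb histone mark, was at 56.4, 51.7, 64.1 and 66.8 CPM against 2.56, 2.48 and 2.12 CPM (4.68, SE 0.22). Chd7, a remodeller, rose by 4.69 (SE 0.36), Dnmt3b, a DNA methyltransferase, by 3.67 (SE 0.50), and the oncofetal RNA-binding gene Lin28a from 0.151 ± 0.00381 to 172 ± 65.2 CPM (10.15, SE 0.52).

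**Figure D4:**
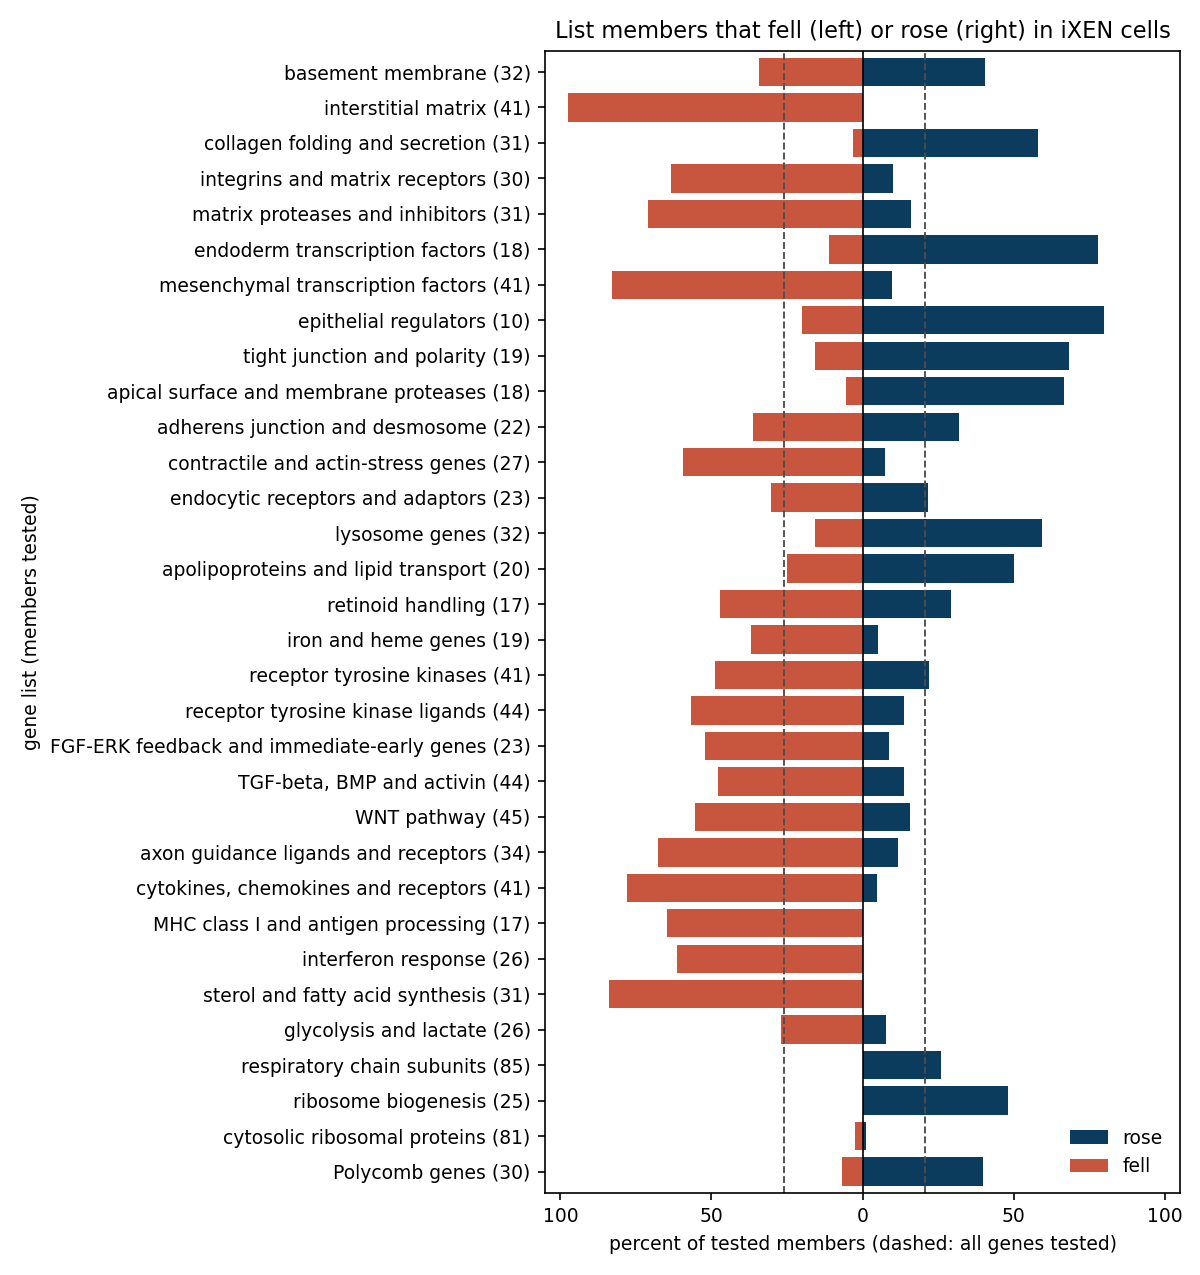
Percent of tested members of each gene list that rose (right of 0) or fell (left of 0) in iXEN cells. Over all genes tested 20.8% rose and 25.9% fell, drawn as dashed lines.

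Some falls lay side by side in the genome. By RefSeq gene order, the longest run of neighbouring tested genes that all fell held 11 genes, from Begain through Dlk1, Meg3, Rtl1, Rian and Mirg to Dio3, an imprinted domain (median -5.41). Meg3, a noncoding RNA read from the maternal copy, was at 59.5, 18.4, 0.277 and 25.6 CPM in iXEN 1, 2, 6 and 9 and at 989.7, 689 and 931 CPM in MEF, and Rian was at 58.2, 13, 0.184 and 18.8 CPM, so iXEN 6 was far below the other iXEN libraries in both. A run of 10 genes held Rassf6, the chemokine genes Cxcl5, Ppbp, Pf4, Cxcl15, Cxcl1 and Cxcl2, Mthfd2l, and the EGF receptor ligands Ereg and Areg (median -8.86). Without MEF 2 the calls of Rassf6 (-1.86, adjusted p = 0.0682) and Areg (-3.40, 0.0535) were lost, and Areg was at -6.87 without iXEN 9. The longest runs of rises held 8 genes. One went from Tax1bp3 through Ctns, the lysosomal cystine carrier (2.61, SE 0.31), Trpv1 and Trpv3, ion channels, and Aspa to Rap1gap2 (median 3.22). Counting a lone gene as a run, 64 of 2354 runs of falls and 21 of 2064 runs of rises held at least 5 genes. More genes fell than rose (25.9% and 20.8% of those tested), and how many such runs chance would give was not tested. Counts of genes that overlap or lie antisense to each other within a run are uncertain, as the files do not say how strand was treated.

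The iXEN libraries also differed among themselves. Of 9743 genes, 222 were more than 4-fold higher in iXEN 6 than the mean log2 level of the other iXEN libraries and 301 more than 4-fold lower. The counts were 36 and 89 for iXEN 1, 61 and 26 for iXEN 2, and 63 and 166 for iXEN 9. A few that lay far apart are given here. iXEN 9 held 2239 CPM of Xist, the RNA that coats the inactive X chromosome, against 9.53, 1.93 and 3.37 CPM in iXEN 1, 2 and 6 and under 1 CPM in MEF. Of the Y-linked genes, Eif2s3y was at 0 and Ddx3y at 0.0980 CPM in iXEN 9. In iXEN 1, 2 and 6 Ddx3y was at 21.9, 144 and 25.3 CPM, and in MEF at 82.4 to 108 CPM. The rise of Xist in the test (10.30, adjusted p = 0.0288) was still called without iXEN 9 but far smaller (3.50, 0.00487), and it was not called without any 1 MEF library (0.0911 to 0.0951). In iXEN 6 Hba-x was at 0.277 CPM against 14.9 to 55.1 CPM in the others, and Anxa13, an annexin of absorptive epithelia, at 0.0461 CPM against 13.8 to 23.1 CPM. The same library was high in Clu, the secreted chaperone clusterin, at 4329.6 CPM against 77.6 to 695 CPM, and in Chac1, a gene of the amino acid stress response, at 309 CPM against 1.96 to 15.1 CPM. Chac1 had no call against MEF (1.43, adjusted p = 0.453) and was lower without iXEN 6 (-1.99, 0.0252). iXEN 1 was high in Vcan, Acta2, Tagln and Lama4, genes that are high in MEF, but not in Col1a1, at 7.77 CPM. iXEN 2 held 30.1 CPM of Igf2 against 2.95 to 5.50 CPM in the other iXEN libraries.

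**Figure D5:**
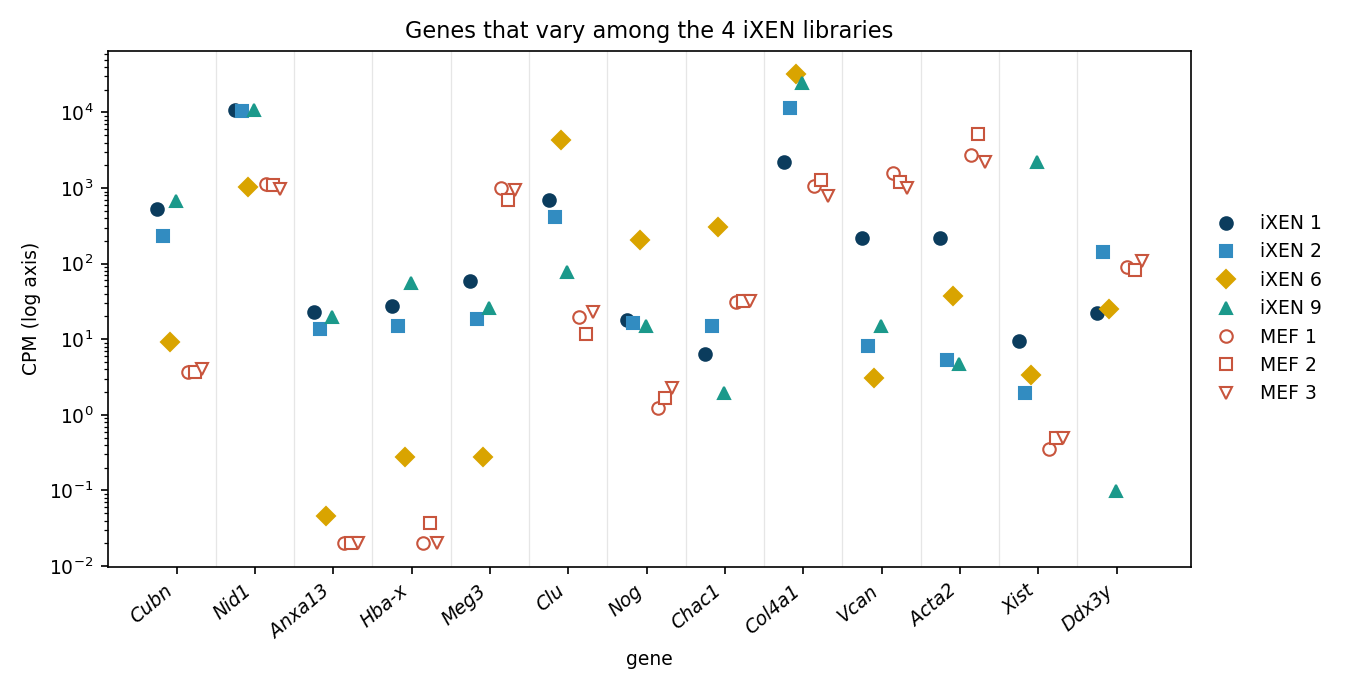
CPM in each library for genes in which the 4 iXEN libraries lay far apart (log axis, values under 0.02 CPM drawn at 0.02). iXEN 6 lies apart for Cubn, Nid1, Anxa13, Hba-x, Meg3, Clu, Nog and Chac1, iXEN 1 for Col4a1, Vcan and Acta2, and iXEN 9 for Xist and Ddx3y.

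Set against the 3 XEN libraries in ESC medium, edgeR called 0 of 12944 genes. At an unadjusted p under 0.05 there were 442 genes higher and 1324 lower in iXEN cells, and DESeq2 called 74 higher and 456 lower. Without XEN 2 edgeR called 1 higher and 48 lower, and without XEN 7 it called 2 higher and 33 lower. XEN libraries varied widely, with a biological coefficient of variation of 0.598 against 0.418 in iXEN cells and 0.195 in MEF. For that comparison, data were simulated with the spread of the XEN libraries in both groups. There the test found 0% of genes changed by 4-fold and 17.9% of those changed by 8-fold. A call of 0 thus does not show that the cells are alike. Basement membrane genes took 8.33%, 18.8% and 1.56% of gene counts in XEN 1, 2 and 7, and interstitial genes 1.39%, 0.182% and 0.0803%. Lama1 was at 11168, 24112 and 1445 CPM in XEN 1, 2 and 7, and Sox7, an endoderm factor, at 40.7, 207 and 0.470 CPM, so XEN 7 was low in both. Col1a1 was at 2403, 137 and 0.287 CPM, so XEN 1 was the highest in that fibroblast marker. Kit was at 231 ± 167 CPM in XEN cells (SD, n = 3), Tyro3 at 376 ± 107 CPM and Stra6 at 292 ± 149.8 CPM. Cbx7 was at 6.06, 1.75 and 34.3 CPM in XEN 1, 2 and 7, all below its iXEN values.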

How the data were processed

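Poly(A) RNA of 17 libraries was sequenced, and 7 of them are compared here. Raw read counts per gene symbol were deposited, 1 file per library, and the submitters' processing notes name FastQC 0.11.3, Trimmomatic 0.32, TopHat2 2.0.12, HTSeq 0.6.1 and genome build mm9. The sources used here give neither parameters nor strand setting nor annotation. The counter's own summary lines were removed and samples were grouped by their labels.

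Counts were tested with edgeR 4.0.16 in R 4.3.3 (filterByExpr with a minimum count of 10 and total of 15, TMM factors, quasi-likelihood test, two-sided, Benjamini-Hochberg adjusted p under 0.05), on the libraries of the 2 groups compared. For iXEN against MEF, data were simulated with the spread of the MEF libraries in both groups. There the test found 77.3% of genes changed by 2-fold and 100% of those changed by 4-fold. The iXEN libraries varied more (biological coefficient of variation 0.418 against 0.195 in MEF), so these shares are too favourable for the real comparison. DESeq2 1.42.0, other scalings, filters and fits, a replicate block and leaving out each library were tried. The smallest library holds 21752277 gene counts, and 3 counts in a single library correspond to 0.0697 to 0.138 CPM. The floor used for bounds and ratios is 3 counts over a whole group, which is lower in CPM. Intervals on ratios of few counts are 95% binomial intervals and cover counting error only.

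The 50 gene lists hold 1366 symbols, of which 1359 matched the files as written, 6 matched under another symbol and 1 is not analysed here. Families such as the protocadherins were taken by symbol. TPM uses merged exon lengths of GENCODE M21 genes, found for 22709 of 24015 genes with 96.6% of counts. Promoters are from RefSeq (GRCm38.p6), found for 10683 of 14352 tested genes, and motifs were searched on both strands of the 250 bases before the start. The genome build of the promoter table differs from that of the files, so it was joined by symbol only.

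Genes were named by a rule: anchors of each list, up to 3 further called members in the main direction and 1 in the other, the largest changes outside the lists, the most abundant genes, the genes most uneven among iXEN libraries and the longest runs of neighbours. Some genes that the rule names are not reported here. Of 200 tested genes named, 42 fall outside it and were chosen after their values were seen: Agrn, Alb, Bambi, Ccnd3, Cdh5, Chac1, Col4a5, Col4a6, Ddx3y, Eif2s3y, Elovl6, Emr1, Esam, Fads2, Fgfr2, Fgfr4, Foxa3, Gas6, Hspg2, Id2, Id3, Ifih1, Isg15, Itga7, Kitl, Lama5, Lamb2, Loxl2, Lrpap1, Mertk, Mmp13, Mmp3, Nid2, Pdgfra, Ptprc, Sox7, Srebf2, Stra6, Tek, Tyro3, Vcan and Zfp42. The comparison, lists and rule were chosen with earlier results of these data known.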

Additional observations from a re-analysis of the deposited data

Results flagged for a closer look

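Among 200 genes named above, the gap between 1 iXEN library and the nearest of the other 3, on the log2 scale, exceeded Dixon's 95% limit for 4 samples in 13. Chance flags about 1 in 20 groups, but some of these genes were named for their uneven levels in iXEN libraries, so the count cannot be set against that rate. Most were in iXEN 6. It was lowest for Lama1, at 16889 CPM, Lamc1, at 11907 CPM, Nid1, at 1024 CPM, Fgfr4, at 20.8 CPM, the hedgehog receptor Ptch1, at 1.20 CPM, Apob, at 0.830 CPM, and Anxa13, at 0.0461 CPM. It was highest for Nog, at 208 CPM, for Sall4, at 199 CPM, and for Hgf, whose 0.0461 CPM is 1 count. iXEN 9 was lowest for P4ha1, at 623 CPM, and highest for Areg, at 0.131 CPM. iXEN 1 was lowest for Foxa3, at 1.39 CPM. The part of the low share of reads without a feature in iXEN 6 was not tested.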

How the results depend on the processing

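Of 178 genes named as rising or falling, none changed direction under the alternatives run, and 6 lost the call when 1 library was left out. Those genes and their values are given above. The replicate block (the number in the title, of which 1 and 2 are shared) gave 2615 rises and 3607 falls, took the call from Col4a2 (adjusted p = 0.0558) and put Chac1 at -1.64 (0.0104) against 1.43 without a call. Chac1 ranged from -1.99 to 1.84 when 1 library was left out. Same-numbered libraries deviated together at correlations of 0.0934 and -0.0886, so the numbers give no sign of pairing. Against MEF, rises numbered 2985 in the report, 1875 with all 17 libraries in 1 fit, where 23 of the named genes lost the call, and 1233 when tested against a 2-fold change. They ranged from 1898 to 3735 when 1 library was left out, and falls from 3089 to 4346. Against XEN cells the calls were 0, and 5 lower without a low-count filter, 2 higher and 7 lower with the block, and 74 higher and 456 lower with DESeq2. Leaving out 1 library gave 0 to 2 higher and 0 to 48 lower. Without the 10 most abundant genes of each library the basement membrane share was 0.669% in iXEN cells and 1.07% in MEF, and the interstitial share was 3.85% in MEF. Genes near the floor of 3 counts over a group can be bounded but not ranked. List counts moved too. With all 17 libraries in 1 fit, rises numbered 3 in place of 22 in the respiratory chain, 5 in place of 12 in ribosome biogenesis and 7 in place of 13 in the basement membrane, and interferon response falls 9 in place of 16. With the block, respiratory chain rises numbered 12, and with a minimum of 1 CPM in 3 libraries, epithelial regulator rises 4 in place of 8.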

Other observations

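Genes that control blood clotting, which in the yolk sac and placenta act at the surface facing maternal blood, were mostly higher in iXEN cells. Of 12 tested 7 rose and 3 fell (median 1.54). Tfpi, the inhibitor of the tissue factor pathway, was at 790.2, 558, 1034 and 429.9 CPM in iXEN 1, 2, 6 and 9 and at 78.4, 70.7 and 56.2 CPM in MEF (3.40, SE 0.36). Procr, the protein C receptor, was at 79.1 ± 5.60 against 8.46 ± 1.46 CPM, and Thbd, thrombomodulin, at 235 ± 101 against 68.4 ± 5.81 CPM. Vwf, the von Willebrand factor known from endothelium, rose as well, from 1.91 ± 0.643 to 25.3 ± 20.3 CPM.

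Prostaglandin genes were mostly lower, with 10 of 17 down and 1 up (median -2.62), and 6 down without MEF 3. Ptgs2, the inducible cyclooxygenase, was at 0.294, 0.0232, 0 and 0.131 CPM against 94.6, 122 and 85.0 CPM (-9.83, SE 0.66), and Pla2g4a, the phospholipase that supplies its substrate, fell by 8.40 (SE 0.59). Ptger3, a prostaglandin E receptor, was the 1 that rose (3.52, SE 0.62). Of 8 connexin genes 4 fell and 0 rose, or 1 without MEF 2 and 2 without iXEN 9. Gja1, the main connexin of fibroblasts, fell only from 349 ± 35.5 to 167 ± 51.3 CPM (-1.03, SE 0.26), while Gjc1 fell by 5.41 (SE 0.43).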
